A study of Drosophila melanogaster with 6 samples.

Results

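The genes described here are the nuclear genes of complex III, cytochrome *c*, complex IV and the ATP synthase of the mitochondrial inner membrane, measured as RNA in fly heads. They were chosen by their FlyBase symbols, which begin with *UQCR*, *COX*, *ATPsyn* or *Cyt-c*, or are *RFeSP*, *ox* or *blw*. Genes of the mitochondrial genome were left out. Of the 17492 genes in the count table, 47 fitted this rule: 13 of complex III, 2 of cytochrome *c*, 16 of complex IV and 16 of the ATP synthase.

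Polyadenylated RNA was sequenced from whole heads of adult *Drosophila melanogaster* at the age of 3 days (3d) or 30 days (30d), with 3 samples of each age. All flies were of the wild-type line 5905, which carries the *white* allele *w1118*, and no treatment separates the ages. According to the study's methods, males were collected at eclosion for aging, but the labels of the RNA samples give no sex, and the number of heads in a sample is not given in the sources used here. The labels also do not say whether the samples of an age came from separate cultures, so the p-values below measure only the spread between these samples.

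Complex III takes electrons from ubiquinol and hands them to cytochrome *c*, a small soluble carrier, and complex IV passes them on to oxygen. Both complexes move protons across the inner membrane, and the ATP synthase lets the protons flow back and uses them to make ATP. Each of the 3 enzymes is built from subunits of both genomes, with the core of complex IV, cytochrome *b* of complex III and part of the proton channel of the ATP synthase made inside the mitochondrion. Neurons, photoreceptors and muscle, all present in a fly head, depend heavily on this pathway. In *Drosophila* many of these subunits also have a second gene copy, and several such copies are known for their use in the male germline.

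Total counts on genes ranged from 3176380 to 3741860 per sample. Levels are given as CPM, a gene's counts relative to the size of its library, with library sizes scaled by TMM in edgeR. The 8773 genes with enough counts were tested for a difference between the ages with edgeR's quasi-likelihood test, at a threshold of 0.05 on the Benjamini-Hochberg adjusted p, and all adjusted p-values below come from it unless another test is named. The change of a gene is given as log2FC, the log2 fold change of 30d against 3d, with its standard error (SE). Of all genes tested, 30.4% passed the threshold, made up of 16.1% with a lower and 14.4% with a higher level at 30d. With scaling by library size alone the split moved from 1410 lower and 1259 higher genes to 1053 lower and 1715 higher. As markers of a head, the 12 photoreceptor and the 8 neuron genes examined all had enough counts for the test.

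All 30 of the 47 genes that could be tested had lower RNA levels in the 30d heads, and each passed the threshold, against 16.1% of all genes tested that were called lower. None was higher. Among the 2937 genes tested with a mean level between 66.5 and 1483 CPM, the range spanned by the tested genes other than *COX7AL2*, 28.7% were called lower and the median log2FC was -0.06. The median log2FC of the 30 genes was -0.55, or a level 31.8% lower, while the median of all genes tested was 0.02. Among the 30, the log2 fold change ranged from -1.49 for *COX7AL2* to -0.31 for *UQCR-C2*. In 29 of the 30, every 30d sample lay below every 3d sample, which held for 22.5% of all genes tested. The exception was *ox*. All 30 genes had a lower fitted level at 30d under each of the 3 ways of scaling the libraries, and each passed a filter of at least 10 counts in every sample, so none entered the test through its 3d level alone.

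**Figure D1:**
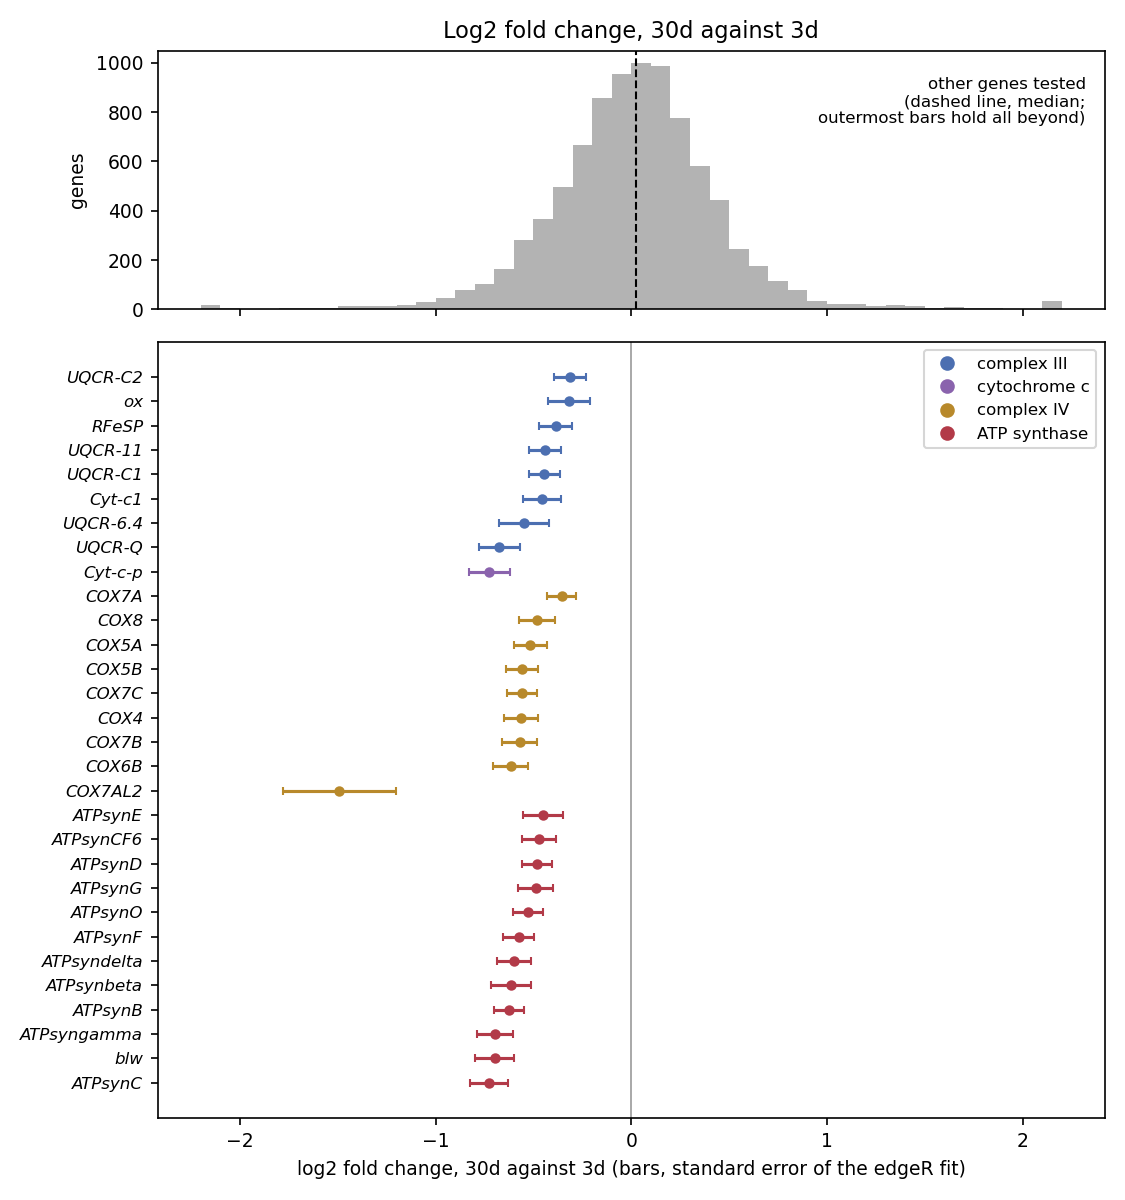
Log2 fold change of 30d against 3d heads for the other genes tested (upper panel, number of genes per bin) and for the 30 tested genes of complex III, cytochrome *c*, complex IV and the ATP synthase (lower panel, bars are standard errors of the edgeR fit). All 30 points lie left of 0, between -1.49 and -0.31, while the median of the other genes lies close to 0.

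The fold changes of these genes were less spread than those of genes in general. The median standard error of a single gene was 0.09. It includes differences between samples that many of the genes share, so it does not measure the spread to expect between genes. Without *COX7AL2*, the SD of the log2FC over the other 29 genes was 0.11. This was smaller than the SD of 0.50 over all genes tested and of 0.43 over the genes in the same range of levels. The middle 50% of these 29 values lay between -0.61 and -0.46. By complex, the median log2FC was -0.59 for the 12 tested genes of the ATP synthase, -0.56 for the 9 of complex IV and -0.44 for the 8 of complex III. These medians describe the complexes, and differences between them were not tested.

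The summed level of all 47 genes was 14195, 12479 and 11594 CPM in the 3d samples and 8473, 8396 and 8655 CPM in the 30d samples. The 30d samples lay close together and 33.3% below the 3d mean, while the 3d samples were more spread (12756 ± 1323 against 8508 ± 133 CPM, SD, n = 3 each). As a share of all counts in a library, the genes took between 1.13% and 1.36% at 3d and between 0.866% and 0.880% at 30d. The highest 3d sample was replicate 1, which gave the highest level of the 6 samples for 26 of the 29 genes other than *COX7AL2*. Without that sample the median log2FC was -0.49 and 29 of 30 genes were called lower.

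**Figure D2:**
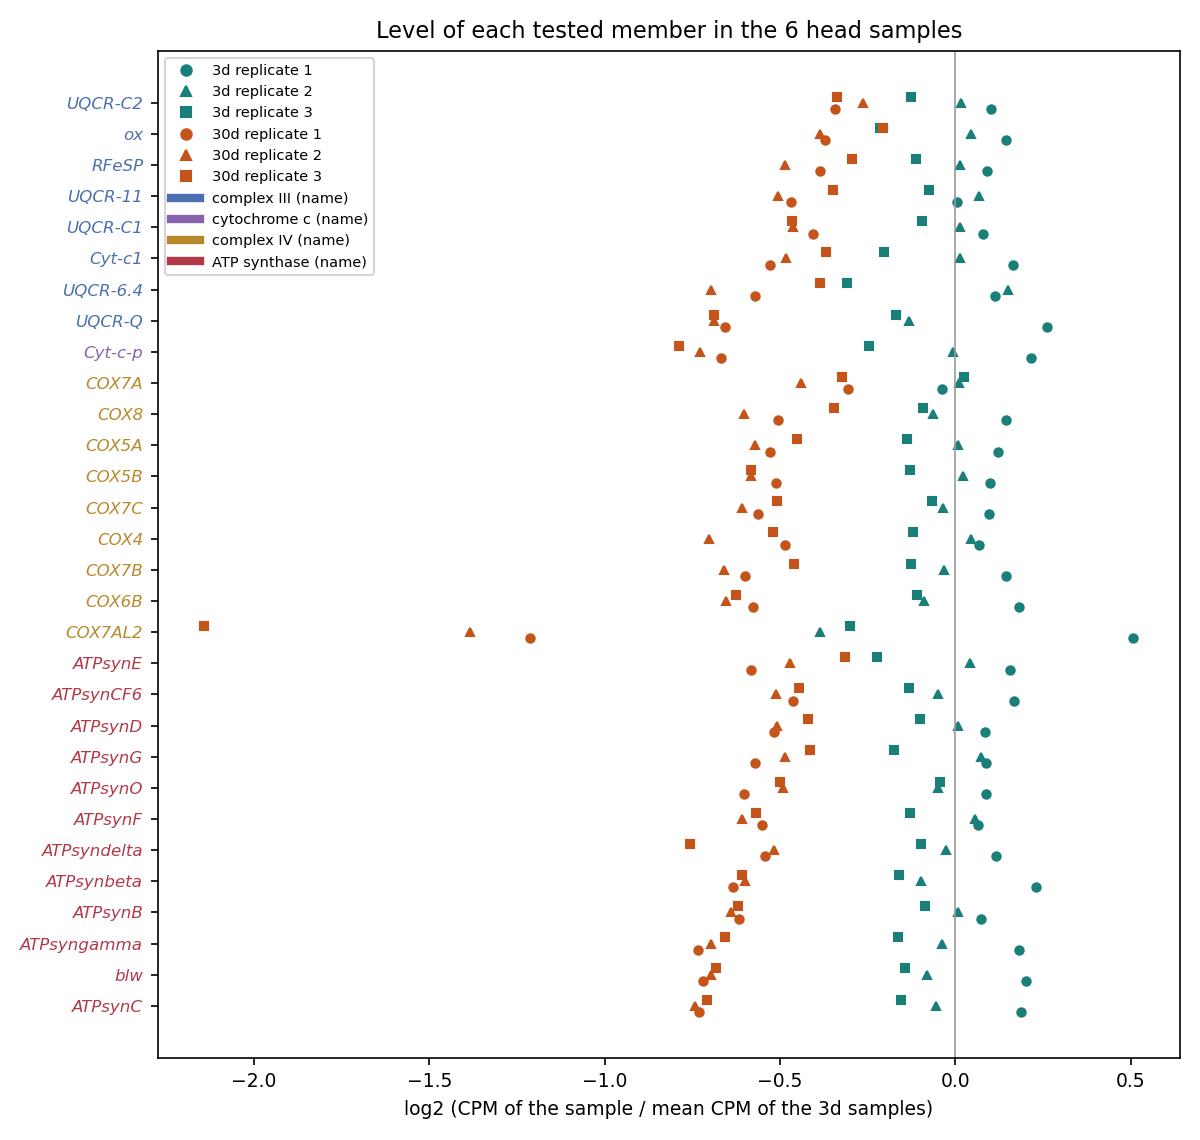
Level of each of the 30 tested genes in each head sample, as log2 of its CPM over the mean CPM of the 3d samples, with green for 3d, orange for 30d and a marker for each replicate number. The ages separate in every row but that of *ox*, and 3d replicate 1 is the highest sample in most rows.

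In the same heads, marker genes of muscle were lower at 30d as well. Of the 18 muscle genes listed, 16 could be tested, 14 were called lower and 0 higher, with a median log2FC of -0.77. Their summed level was 7658, 5264 and 5273 CPM in the 3d samples and 3408, 3534 and 3426 CPM in the 30d samples, so 3d replicate 1 stood highest here too, and none of the 18 was without counts. Of the 8 neuron markers 6 were called lower and 0 higher (median -0.55, summed level 5381 to 6557 CPM at 3d and 3918 to 4332 CPM at 30d). Of the 8 glial markers 4 were lower and 2 higher (median -0.08), and of the 12 photoreceptor markers 3 were lower and 3 higher (median -0.09, summed level 53989 to 62742 CPM at 3d and 60413 to 73412 CPM at 30d). Of the 9 fat body markers 5 could be tested, with 0 lower and 1 higher (median 0.23), and 1 had no count. The part of muscle or neuronal RNA in the lower levels of the respiratory genes was not tested. In whole heads, fewer cells of a type and less RNA per cell cannot be told apart.

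In complex III, the nuclear genes tested, for both core proteins, cytochrome *c1*, the Rieske iron-sulfur protein and small subunits, were lower at 30d. *UQCR-C1* (FBgn0038271, chromosome 3R of dm6, 14890231 to 14892387, plus strand) encodes a core protein on the matrix side. It stood at 615, 587 and 545 CPM in the 3d samples and at 439, 423 and 422 CPM in the 30d samples. The ages were clearly apart, and the log2FC was -0.44 (SE 0.08, adjusted p = 0.00109). *UQCR-C2* (FBgn0250814, 3L, 16584124 to 16586111), the other core protein, changed least of all 30 genes. Its levels of 488, 460 and 416 CPM at 3d and 358, 379 and 360 CPM at 30d gave a log2FC of -0.31 (SE 0.08, adjusted p = 0.0115).

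*Cyt-c1* and *RFeSP* encode the electron-carrying subunits of nuclear origin, cytochrome *c1* and the Rieske iron-sulfur protein, which work with the mitochondrially encoded cytochrome *b*. *Cyt-c1* fell from 362 ± 45.7 to 264 ± 15.1 CPM (SD, n = 3 each) and *RFeSP* from 336 ± 23.6 to 257 ± 17.1 CPM, by 0.46 and 0.39 on the log2 scale. Of the small subunits, *UQCR-Q*, which encodes the ubiquinone-binding protein in mammals, was at 218, 166 and 162 CPM at 3d and 116, 113 and 113 CPM at 30d. Its log2FC of -0.67 (SE 0.11, adjusted p = 0.000566) was the largest fall in complex III. With each sample left out in turn it lay between -0.75 and -0.53, a range that overlaps that of *UQCR-6.4* (-0.68 to -0.46). *UQCR-6.4* and *UQCR-11* fell by 0.55 and 0.44 on the log2 scale. For *UQCR-6.4*, exons of *POSH* on the other strand overlap 40.5% of its exon bases.

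*ox* (FBgn0011227, chromosome 2R, 12757133 to 12757529, minus strand), whose product is one of the smallest subunits, was the least certain of the 30. It stood at 91.6, 85.5 and 71.4 CPM at 3d and at 64.0, 63.5 and 71.8 CPM at 30d. Replicate 3 of the 30d samples thus lay just above replicate 3 of the 3d samples, and the log2FC of -0.32 passed the threshold narrowly (SE 0.11, adjusted p = 0.0375). The call was lost with DESeq2's Wald test (adjusted p = 0.105), with scaling by library size alone (adjusted p = 0.0948) and in 4 of the 6 fits with 1 sample fewer, namely without 3d replicate 1 (log2FC -0.24), 3d replicate 2 (-0.29), 30d replicate 1 (-0.29) and 30d replicate 2 (-0.28). Its adjusted p lay between 0.00683 and 0.105 over the 9 other alternatives.

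A further small subunit of complex III, *UQCR-14* (FBgn0030733, chromosome X, 16286288 to 16286988, plus strand), had a count of 0 in every sample. In the annotation used here, exons of *CG32576* on the other strand cover 100% of its exon bases. The authors' counting ignored strand and left out reads that lie in the exons of more than one gene, so its RNA could not be counted and its zeros say nothing about its level.

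Cytochrome *c* has 2 genes, which lie side by side on chromosome 2L with 296 bases between them. *Cyt-c-p* (FBgn0284248, 16719932 to 16722644) encodes the cytochrome *c* of somatic tissues. It stood at 429, 367 and 311 CPM in the 3d samples and at 232, 223 and 213 CPM in the 30d samples. All 30d samples lay well below the lowest 3d sample, and the log2FC of -0.73 (SE 0.11, adjusted p = 0.000328) was, after that of *COX7AL2*, the largest of the 30, with that of *ATPsynC* next to it. *Cyt-c-d* (FBgn0086907, 16715891 to 16719635), known for its role in the differentiation of sperm, had 4, 3 and 2 counts at 3d and 0, 1 and 1 at 30d, too few for a test. Over all samples there were 555 counts of *Cyt-c-p* for each count of *Cyt-c-d*. Exons of *CG31808* on the other strand overlap 36.4% of the exon bases of *Cyt-c-d*. Reads there were left out of the counts, which could raise this ratio.

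In complex IV the members tested are structural subunits that surround the catalytic core. *COX4* (FBgn0032833, chromosome 2L, 19958713 to 19960065, plus strand), a subunit known from mammals for binding ATP, stood at 559, 551 and 491 CPM at 3d and 381, 328 and 372 CPM at 30d. It fell in all 30d samples relative to all 3d samples, by 0.57 on the log2 scale (SE 0.09, adjusted p = 0.000473). *COX5A* (FBgn0019624, 3R, 11819359 to 11820299) was at 405, 374 and 338 CPM at 3d and 258, 251 and 272 CPM at 30d, a log2FC of -0.52 (SE 0.08, adjusted p = 0.000716). *COX6B* (FBgn0031066, X, 19740537 to 19744335), which faces the intermembrane space, was at 401, 332 and 328 CPM at 3d and 237, 225 and 229 CPM at 30d. Its fall of 0.62 on the log2 scale was the largest in complex IV after that of *COX7AL2*. 

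The smaller subunits *COX5B*, *COX7B*, *COX7C* and *COX8* had mean levels between 169 and 215 CPM at 3d and between 121 and 146 CPM at 30d, with log2FC values of -0.56, -0.57, -0.56 and -0.48 and adjusted p-values between 0.000237 and 0.00189. *COX7A* (FBgn0040529, 3R, 8339944 to 8341043), known in mammals for a place at the contact between complexes, changed least in complex IV. It stood at 233, 240 and 243 CPM at 3d and 193, 176 and 191 CPM at 30d, without overlap, with a log2FC of -0.36 (SE 0.08, adjusted p = 0.00341). Here 3d replicate 1 was the lowest of the 3d samples.

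*COX7AL2* (FBgn0085201, chromosome 2L, 2192525 to 2197912, minus strand), named as a COX7A-like gene, was the lowest of the tested genes and fell the most. Its counts were 71, 46 and 45 in the 3d samples and 26, 23 and 13 in the 30d samples, or 23.3, 12.6 and 13.3 CPM against 7.08, 6.29 and 3.72 CPM. The log2FC was -1.49 (SE 0.29, adjusted p = 0.00192) and became -1.17 without 3d replicate 1. For each count of *COX7AL2* there were 9.97, 19.1 and 18.2 counts of *COX7A* at 3d and 27.2, 28.0 and 51.3 at 30d, so *COX7AL2* fell further than *COX7A* in these samples. This ratio separated the ages completely (log2 difference 1.16, exact two-sided permutation test, p = 0.1), but 0.1 is the smallest p that 3 samples against 3 can give, and the pair was singled out after its values were seen.

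The ATP synthase held most of the counts of the 47 genes, and all 12 of its tested members fell. In the catalytic head, *blw* encodes the alpha subunit and *ATPsynbeta* the beta subunit, which carries the catalytic sites. *blw* (FBgn0011211, chromosome 2R, 22799099 to 22802180, plus strand) stood at 1964, 1615 and 1548 CPM at 3d and 1038, 1055 and 1065 CPM at 30d. *ATPsynbeta* (FBgn0010217, chromosome 4, 1031484 to 1034917, plus strand) stood at 2103, 1675 and 1604 CPM at 3d and 1157, 1183 and 1177 CPM at 30d. In both genes 3d replicate 1 was the highest by far and the 30d samples were nearly equal. The log2FC values were -0.70 (SE 0.10, adjusted p = 0.000240) for *blw* and -0.61 (SE 0.10, adjusted p = 0.000818) for *ATPsynbeta*, and without 3d replicate 1 they were -0.59 and -0.48.

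In the rotor, *ATPsynC* (FBgn0039830, chromosome 3R, 31216145 to 31219630, minus strand) encodes the subunit of the ring that turns with the passage of protons. It stood at 2080.3, 1760.5 and 1642 CPM at 3d and 1101, 1093 and 1119 CPM at 30d, with the largest fall in the enzyme (log2FC -0.73, SE 0.10, adjusted p = 0.000172). *ATPsyngamma*, the central shaft (FBgn0020235, 3R, 29747704 to 29749163), was at 452, 388 and 356 CPM at 3d and 240, 246 and 253 CPM at 30d, a log2FC of -0.69 (SE 0.09, adjusted p = 0.000172). *ATPsyndelta*, at the foot of the shaft, fell by 0.60 on the log2 scale, from 181 ± 13.9 to 119 ± 10.6 CPM. Exons of *CG2962* on the other strand overlap 35.6% of its exon bases.

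The stalk that holds the head in place is built from *ATPsynB*, *ATPsynD*, *ATPsynCF6* and *ATPsynO*. *ATPsynB* (FBgn0019644, chromosome 3L, 9729999 to 9731224, plus strand) stood at 461, 439.98 and 413 CPM at 3d and 285, 281 and 285 CPM at 30d. Both ages were tight, and its adjusted p was the smallest of the 30 genes (log2FC -0.63, SE 0.08, adjusted p = 0.000102). *ATPsynD*, *ATPsynCF6* and *ATPsynO* fell by 0.48, 0.47 and 0.53 on the log2 scale. The membrane subunits *ATPsynE*, *ATPsynF* and *ATPsynG* fell by 0.45, 0.58 and 0.49, with *ATPsynE* the least certain of the enzyme (adjusted p = 0.00574). Its samples were 228, 211 and 175 CPM at 3d and 137, 148 and 165 CPM at 30d, and the ages lay close without overlap.

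**Figure D3:**
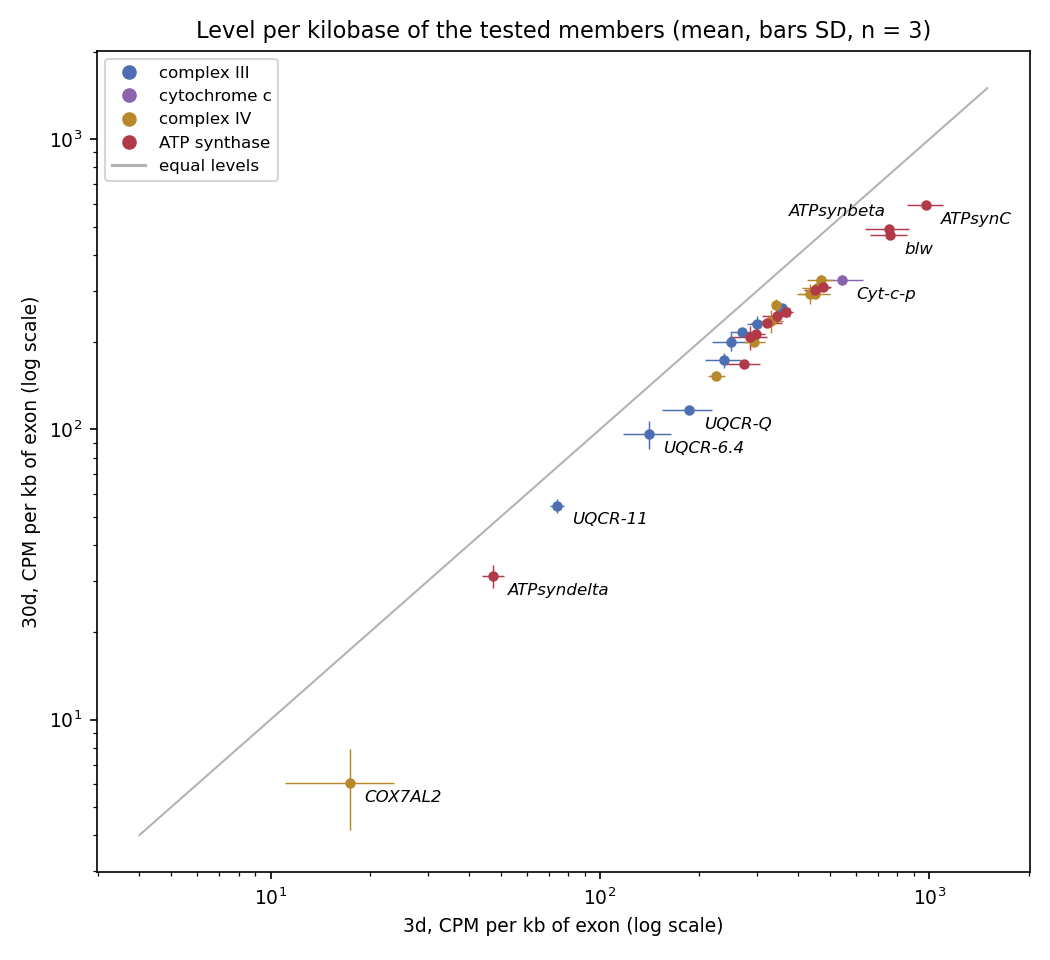
Level per kilobase of exon of the 30 tested genes at 3d and 30d, on log axes, as mean with SD of 3 samples, and a line of equal levels. *ATPsynC*, *blw* and *ATPsynbeta* are the highest at both ages, every gene lies below the line, and *COX7AL2* lies farthest from it.

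To compare levels between genes, CPM were divided by exon length in the annotation. Per kilobase, *ATPsynC* had the highest level at 3d (978 ± 121 CPM per kb), followed by *blw* (759 ± 99.3) and *ATPsynbeta* (752 ± 113), which did not differ beyond their spread, and then *Cyt-c-p* (542 ± 86.5). The ring subunit, alpha and beta are each present in several copies in an ATP synthase, while most other subunits are present once. Without division by exon length, *ATPsynC*, *blw* and *ATPsynbeta* together held 67.4% of the summed CPM of the ATP synthase genes at 3d and 65.6% at 30d. Their exons, of 1868, 2252 and 2386 bases, are longer than those of most other tested genes of the enzyme, which raises this share. From rank 5 to rank 25 the levels at 3d ran from 477 (*ATPsynB*) down to 226 CPM per kb (*COX7C*), and in the whole order 21 of the 29 neighbours were closer to each other than the larger of their SDs. The lowest were *UQCR-11*, *ATPsyndelta* and *COX7AL2* at 74.1, 47.5 and 17.4 CPM per kb. *ATPsyndelta* and *UQCR-11* have long annotated exons, of 3817 and 1613 bases in all, and their levels per kilobase depend on that annotation.

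The order of levels per kilobase was much the same at 30d (Spearman's rho 0.99 over the 30 genes, which share the same libraries and exon lengths). Within complex IV the highest level was 2.07 times the lowest at 3d and 2.13 times at 30d, with *COX7AL2* left out. Within complex III it was 4.81 and 4.80 times. Within the ATP synthase, where *ATPsyndelta* was the lowest, it was 20.6 and 18.9 times. Across the 29 genes other than *COX7AL2*, those with a higher level per kilobase at 3d tended to fall more (Spearman's rho -0.45 with the log2FC). Over all 30 genes rho was -0.31. The 3d values enter both the level and the log2FC, so noise in them alone pushes rho below 0, and nothing is concluded from it. Both values of rho are a description across genes of the same libraries, not across replicates.

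The tested genes are spread over the genome, with 6 on chromosome arm 2L, 5 on 2R, 7 on 3L, 9 on 3R, 1 on chromosome 4 and 2 on X. They are short: the median exon length was 886 bases, against 2248 for all genes tested, and 19 of the 30 had at most 1000 bases. The 1107 other genes tested with at most 1000 bases of exon had a median log2FC of 0.11, with 9.94% called lower. With a trend of each library with exon length removed, all 30 genes were still called lower and their median was -0.64. Among the 21 tested genes with less than 5% of their exon bases overlapped by other genes, the median was -0.53.

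Of the 47 genes, 17 had too few counts for a test, with at most 4 counts in any sample and 79 counts together. *UQCR-14* is one of them, and the other 16 are second copies of subunit genes: *ATPsynCF6L*, *ATPsynGL*, *ATPsynbetaL*, *ATPsynepsilonL*, *Cyt-c1L*, *Cyt-c-d*, *UQCR-11L*, *UQCR-14L*, *UQCR-6.4L*, *COX4L*, *COX5BL*, *COX6AL*, *COX6AL2*, *COX6CL*, *COX7AL* and *COX7CL*. With *COX7AL2*, tested above, 17 of the 47 genes are such copies. *ATPsynCF6L*, *ATPsynGL*, *UQCR-14L* and *COX5BL* had 0 counts. For the former 3, 0 of 20934580 counts allows a level of up to 0.143 CPM by counting error alone. The exons of *COX5BL*, like those of *UQCR-14*, are wholly overlapped by another gene, and its 0 is not informative.

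The main copies outnumbered these copies by a wide margin. *COX4* had 927 counts for each count of *COX4L*, *Cyt-c1* 648 for each of *Cyt-c1L*, and *ATPsynbeta* had 30634 counts against the single count of *ATPsynbetaL*. *COX7AL* and *COX7CL*, which lie 2625 and 281 bases from *COX7A* and *COX7C*, had 7 and 4 counts. Reads shared by close copies could have been lost in the counting. As a reference for the germline copies, 17 of 18 testis marker genes had too few counts for a test as well, the exception being *bol*.

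**Figure D4:**
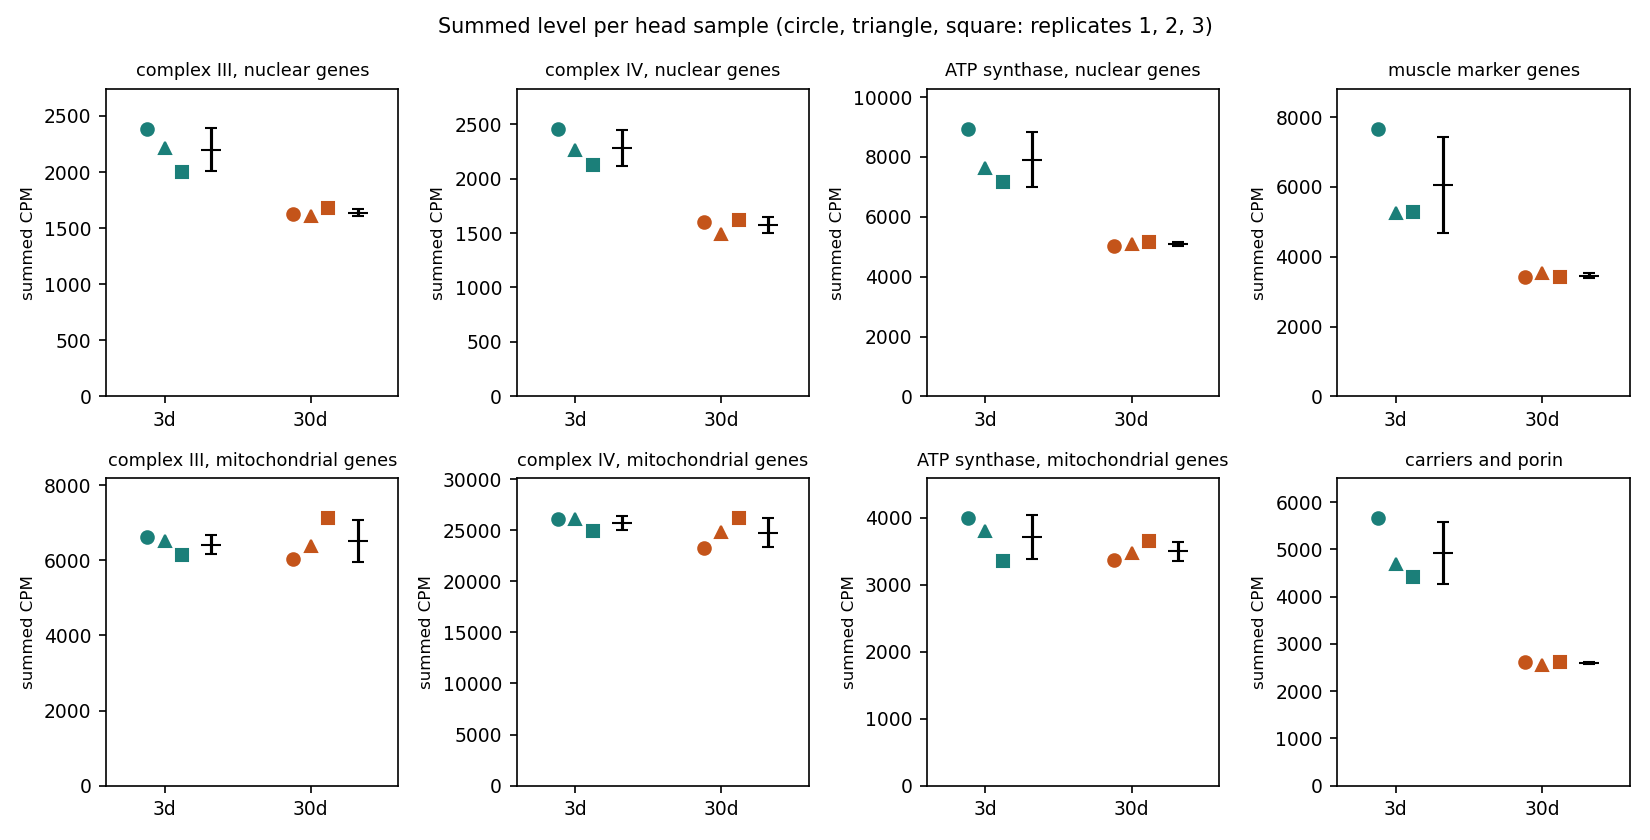
Summed CPM per head sample for complex III, complex IV and the ATP synthase. For these, the upper row holds the nuclear genes chosen by symbol and the lower row the mitochondrial genes. Sums of 18 muscle marker genes and of the 5 carrier and porin genes are shown beside them. Mean and SD of 3 samples stand beside the points, and axes start at 0. The nuclear sums, the muscle sum and the carrier sum lie lower in every 30d sample than in any 3d sample, while the mitochondrial sums of the ages overlap.

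The mitochondrial genome encodes 6 subunits of the same enzymes, and none of their RNAs passed the threshold. *mt:Cyt-b* of complex III had a log2FC of 0.02 (SE 0.10), and *mt:CoI*, *mt:CoII* and *mt:CoIII* of the core of complex IV had 0.05, -0.10 and -0.24 (SE 0.11, 0.09 and 0.10). *mt:ATPase6* and *mt:ATPase8* had -0.08 and -0.28 (SE 0.10 and 0.26). A missed threshold does not show that these 6 were equal between the ages. Of all 13 mitochondrial protein genes, 2 were called lower and 1 higher.

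For complex IV, the 3 mitochondrial RNAs summed to 26042, 26125 and 24948 CPM at 3d and 23256, 24853 and 26153 CPM at 30d, against 2454, 2265 and 2128 CPM and 1605, 1488 and 1619 CPM for the nuclear genes. The ratio of mitochondrial to nuclear RNA was thus 10.6, 11.5 and 11.7 at 3d and 14.5, 16.7 and 16.2 at 30d. For the ATP synthase this ratio was 0.447, 0.498 and 0.467 at 3d and 0.673, 0.685 and 0.709 at 30d, and for complex III it was 2.78, 2.93 and 3.07 at 3d and 3.71, 3.95 and 4.25 at 30d. In all 3 enzymes the ratio was higher in every 30d sample than in any 3d sample. The difference was not tested. Mitochondrial RNAs pass the selection of polyadenylated RNA by their own short tails, so the ratios hold only for this library type. The nuclear sums hold only genes chosen by symbol, without the subunit genes *levy*, *cype* and *sun* described below. For complex IV and the ATP synthase they are thus not sums over the whole enzyme.

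Other nuclear genes of these enzymes and of the pathway were taken from fixed lists. Of 11 tested subunits, assembly factors and inhibitor homologues with other symbols, 4 were called lower, 2 higher and 5 neither (median log2FC -0.14). *Cox10*, an assembly factor of complex IV, fell by 0.34 on the log2 scale, and the higher genes were *CG13551* and *CG34423*, homologues of the mammalian inhibitor of the ATP synthase, at 0.40 and 1.14. Among the subunits, *levy* and *cype*, complex IV subunits that carry other symbols, fell by 0.47 and 0.49 on the log2 scale, and *sun*, the epsilon subunit of the ATP synthase, fell by 0.91, from 133 ± 23.3 to 70.4 ± 4.01 CPM. Of the 32 nuclear genes of complex I that could be tested, 30 were called lower and 0 higher (median log2FC -0.41). All 4 genes of complex II were called lower (median -0.28). Among the carriers that move ADP, ATP and phosphate across the inner membrane and the channel of the outer membrane, 4 of 4 tested genes were called lower, with a median of -0.98. Of these, *sesB*, the main ADP/ATP carrier, stood at 2521 ± 454 CPM at 3d and 1226 ± 27.1 CPM at 30d.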

How the data were processed

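RNA was measured in 6 head samples, 3 of each age. The authors built single-end libraries from polyadenylated RNA, mapped them to dm6 by STAR and assigned reads to genes by HTSeq in its strictest intersection mode, ignoring strand. What they deposited are raw counts per gene, not normalized, and 0 sample columns were left unused. The annotation release behind the counts is not given in the sources used here.

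Symbols came from a FlyBase name table, and positions, exon lengths and overlaps from Ensembl release 115 for this assembly, in which 17356 of 17492 identifiers were found. Genes were kept by filterByExpr (minimum count 10, grouped by age), and 30d was compared with 3d over the whole table in R 4.3.3 with edgeR 4.0.16 (TMM, quasi-likelihood test, two-sided). The standard error is the log2 fold change divided by the square root of F. Total counts per sample were 3176380 to 3741860. Replicates differed by more than counting noise (chi-squared per degree of freedom 2.29 to 6.21), and intervals for counting error are lower limits on the error. The scripts were tested on simulated counts.

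Named genes were all members called, all members with too few counts, and genes of lists of respiratory, carrier, regulator and marker genes. The members and lists were chosen with earlier results of these data known. Alternatives were other scalings, DESeq2 1.42.0, limma-voom from limma 3.58.1, other filters, a replicate block, removal of a length trend and leaving out each sample. Tables and plots were made with Python 3.11.15, pandas 2.3.3 and matplotlib 3.10.9.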

Additional observations from a re-analysis of the deposited data

How the results depend on the processing

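Of the 30 genes, 29 kept their direction and their call in all 15 alternatives, 9 of them other settings and 6 with a sample left out. *ox* kept its direction in all 15 and lost its call in 6, as given above. The number of genes called lower lay between 29 and 30 in every alternative, and none was called higher. The median log2 fold change of the tested genes was -0.55. It was -0.47 with scaling by library size alone and -0.64 with the length trend removed. With the length trend removed together with the replicate block it was -0.63. With each sample left out in turn it ranged from -0.60 to -0.49. The replicate block alone gave a median of -0.55 and 30 called genes. Deviations of samples that share a replicate number had weak positive correlations (0.14, 0.02 and 0.05), against -0.12 to 0.10 for samples with different numbers. These values do not settle whether the numbers mark a pairing, and the main test did not use them as one. Scaling by library size alone moved the ratio of summed CPM, 30d to 3d, from 0.667 to 0.704. The number of genes called higher among all genes tested was 738 with DESeq2's Wald test against 1259, and 2669 genes were called in all, with a range from 1879 to 2596 when a sample was left out. With no filter on low counts 42 of the 47 genes entered the test and 30 were called. Depth limits the genes with few counts, apart from *UQCR-14* and *COX5BL*, whose exons are wholly overlapped by another gene. Other genes also overlap 67.0% of the exon bases of *COX6AL2* and 36.4% of those of *Cyt-c-d*, so reads lost to overlap may limit these 2 as well. GC content was not examined.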

Other observations

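Genes that assemble, inhibit or regulate these enzymes gave mixed values. Of the assembly factors of complex IV, *Cox10*, an enzyme of heme synthesis for this complex, fell by 0.34 on the log2 scale (adjusted p = 0.0376, quasi-likelihood test of edgeR). *Scox* and *Cox17*, which handle copper, and *Cox11*, *Surf1* and *Coa8* had log2FC values of -0.03, 0.07, -0.14, 0.21 and -0.34 and did not pass the threshold, at mean levels between 6.68 and 33.1 CPM at 30d. *CG13551* and *CG34423*, homologues of the mammalian inhibitor of the ATP synthase, were higher at 30d. The mean level of *CG13551* was 72.3 ± 4.49 CPM at 3d and 95.6 ± 6.19 CPM at 30d (SD, n = 3 each), and it rose by 0.40 on the log2 scale (SE 0.09, adjusted p = 0.00465 in edgeR). *CG34423* rose by 1.14 (SE 0.30, adjusted p = 0.0112 in edgeR) from a low level of 3.47 ± 0.955 CPM, and other genes overlap 65.7% of its exon bases.

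Of 6 regulators of mitochondrial genes examined, 1 passed the threshold. *srl*, the fly homologue of the coactivator PGC-1, had mean levels of 13.1 CPM at 3d and 22.8 CPM at 30d and rose by 0.78 on the log2 scale (SE 0.18, adjusted p = 0.00496 in edgeR). *TFAM*, which packages mitochondrial DNA, and *ewg*, the homologue of the respiratory factor NRF1, had log2FC values of -0.07 and 0.02 (SE 0.12 and 0.07). The other 3, *Ets97D*, *mtTFB2* and *mtRNApol*, had 0.33, -0.21 and 0.21 (SE 0.18, 0.22 and 0.10).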
